A study of Mus musculus with 8 samples.

Results

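Cdh15, Gdpd3, Cap2, Abhd1, Rassf4 and Dusp16 are 6 of the 17049 genes measured in mouse liver, and each gave a much brighter array signal in KKAy than in C57BL/6J mice. The members were chosen by their own strain difference, as genes at least 8-fold brighter in KKAy at both ages. Genes placed in another gene set of the same data were left out, so the members are not all the genes past that limit. Because of this choice, the strain differences of the members are given as a description without a test. Total liver RNA was compared in 4 groups of 2 arrays each: KKAy at 11 weeks, KKAy at 4 weeks, C57BL/6J at 11 weeks and C57BL/6J at 4 weeks of age. KKAy mice become obese and have the yellow agouti allele on the KK background, and by the labels they had diabetes whereas C57BL/6J were normal. The strains differ throughout their genomes and not only at agouti, so no group isolates that allele. Standard chow was fed in every group, livers were taken after an overnight fast, and no sex is stated. The labels number the samples without saying that they came from separate animals, so the spread between arrays, and any p-value built on it, may be technical.

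The products of these genes act in cell adhesion, on actin, on phospholipids and in signalling by kinases. Cdh15 encodes M-cadherin, a calcium-dependent adhesion molecule best known from muscle precursor cells and satellite cells, and Cap2 encodes a cyclase-associated protein that binds actin monomers and is best known from heart and skeletal muscle. Gdpd3 encodes a glycerophosphodiester phosphodiesterase family member that releases lysophosphatidic acid from lysophospholipids, and Abhd1 belongs to the alpha/beta hydrolase fold family. Rassf4 is a RAS association domain family member whose SARAH domain is of the kind that binds the Hippo kinases, and Dusp16, also called MKP-7, is a dual-specificity phosphatase that removes phosphate from the stress kinases JNK and p38.

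The regions before the annotated start sites of Cdh15, Gdpd3 and Cap2 are shown because these 3 genes had the widest strain differences with the scanner's background correction. Each run holds the 250 bases before the start site in RefSeq's GRCm38.p6, an assembly of C57BL/6J, in the direction of the gene, and KKAy sequence was not used here. Capitals mark matches, on either strand, to the TATA box TATAAA, the CAAT box CCAAT, the GC box GGGCGG, the nuclear receptor core AGGTCA, or the E-box letters CACGTG or CAGCTG. The windows lie on the plus strand at chr8:122848124-122848373 for Cdh15, chr7:126766164-126766413 for Gdpd3 and chr13:46501653-46501902 for Cap2.
Cdh15: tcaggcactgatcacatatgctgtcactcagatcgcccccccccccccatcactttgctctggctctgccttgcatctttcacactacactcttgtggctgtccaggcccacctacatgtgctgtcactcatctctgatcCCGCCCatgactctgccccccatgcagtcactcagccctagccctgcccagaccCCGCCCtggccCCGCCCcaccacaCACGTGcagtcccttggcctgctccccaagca
Gdpd3: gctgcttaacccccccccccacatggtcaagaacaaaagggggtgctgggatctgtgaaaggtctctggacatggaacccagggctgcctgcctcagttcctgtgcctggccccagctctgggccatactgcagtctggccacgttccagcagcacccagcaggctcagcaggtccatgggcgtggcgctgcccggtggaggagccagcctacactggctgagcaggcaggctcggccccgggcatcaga
Cap2: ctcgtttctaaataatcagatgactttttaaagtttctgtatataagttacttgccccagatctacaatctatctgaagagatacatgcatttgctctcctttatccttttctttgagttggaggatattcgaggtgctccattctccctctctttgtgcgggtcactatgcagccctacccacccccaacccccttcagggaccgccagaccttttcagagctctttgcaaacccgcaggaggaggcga

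The Cdh15 window held GGGCGG on the opposite strand at positions -110, -56 and -45 from the start site and CACGTG at -32. None of the 6 motifs was found in the Gdpd3 or Cap2 window. In the corresponding windows of the other members with an entry, both on the minus strand of chromosome 6, Rassf4 held GGGCGG at -52 and -30 and CCAAT at -216, and Dusp16 held 5 matches to GGGCGG as well as CCAAT at -82 and AGGTCA at -42. Abhd1 was not matched. Among 32851 windows of the same length, 32.7% held GGGCGG, 33.8% CCAAT, 14.0% AGGTCA, 13% CAGCTG, 12.4% TATAAA and 6.02% CACGTG, the least common of the 6. The windows also differed in composition, with 27 CpG pairs in Dusp16, 13 in Rassf4, 6 in Gdpd3, 6 in Cap2 and 5 in Cdh15, against a median of 6 over all windows.

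Signals are given as a percentage of the 75th percentile of the array, so that 100 is the signal below which 75% of probes lie. This scale compares arrays for a given probe and does not compare genes with each other. The array held 14 probes for the 6 genes, of which 13 passed the filter on dim signal, and each gene is described first by its brightest probe. All 6 genes passed that filter, Gdpd3 and Cap2 only through the KKAy arrays.

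Cdh15 was bright in KKAy and faint in C57BL/6J. Its probe, on the plus strand at chr8:125753221-125753280 in the mm8 build of the array annotation, read 727 and 738 in KKAy at 11 weeks, against 3.83 and 3.82 in C57BL/6J at 11 weeks. The 4-week arrays read 1247 and 1307 in KKAy, against 2.04 and 2.81 in C57BL/6J. All 4 KKAy arrays were far above all 4 C57BL/6J arrays, and the probe was nevertheless well above background on every array of both strains. The log2 difference was 7.58 ± 0.16 at 11 weeks and 9.06 ± 0.16 at 4 weeks (SE of the fit, 2 arrays a group), which is 192-fold and 533-fold. With normexp background correction in place of the scanner's, the log2 differences were 5.84 and 7.14. The M-cadherin transcript was therefore measurable in both strains, and in C57BL/6J close to the lower end of the measurable range.

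Cap2 differed in another way, because C57BL/6J gave no measurable signal. The brighter of its 2 probes, whose alignment spans chr13:46651078-46657540, read 63.7 and 58.5 in KKAy at 11 weeks, against 0.485 and 0.469 in C57BL/6J. At 4 weeks it read 64.4 and 65.2 in KKAy, against 0.295 and 0.688 in C57BL/6J. None of the 4 C57BL/6J arrays was well above background at this probe, whereas all 4 KKAy arrays were. Taking the lowest signal well above background on each C57BL/6J array as the limit, Cap2 was at least 33.2-fold brighter in KKAy at 11 weeks and at least 37.96-fold brighter at 4 weeks. Measured log2 differences were 7.001 ± 0.37 and 7.17 ± 0.37 (SE) at these ages, 2.76 and 3.13 with normexp, and 7.78 or 6.56 at 4 weeks without the second or the first C57BL/6J array. With normexp the 11-week difference was below 8-fold and was the smallest among the members at that age.

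Gdpd3 was likewise near background in C57BL/6J. Its probe at chr7:126562154-126562327, an alignment of 174 bases, read 272 and 281 in KKAy at 11 weeks, against 0.538 and 2.01 in C57BL/6J. The 4-week readings were 261 and 271 in KKAy, against 1.98 and 0.901 in C57BL/6J. The 4 KKAy arrays lay within a narrow band, while the C57BL/6J arrays scattered at the floor and only the first 4-week array there was well above background. KKAy was at least 143-fold brighter at 11 weeks. No fold is given at 4 weeks, where 1 of 2 C57BL/6J arrays measured the probe. The fitted log2 differences were 8.05 ± 0.65 and 7.64 ± 0.65 (SE), with the widest error of the 6 genes. They were 4.53 and 4.85 with normexp, and at 11 weeks 9.004 or 7.10 without the second or the first C57BL/6J array.

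Abhd1 was the clearest case of a gene that was on in both strains. Its brighter probe, at chr5:31231610-31231669 on the plus strand, read 1494 and 2102 in KKAy at 11 weeks, against 126 and 146 in C57BL/6J. At 4 weeks it read 3199 and 4253 in KKAy, against 111 and 163 in C57BL/6J. Every C57BL/6J reading was above the 75th percentile of its own array, and every KKAy reading was far higher again. The log2 difference was 3.71 ± 0.27 at 11 weeks and 4.78 ± 0.27 at 4 weeks (SE), or 13.04-fold and 27.4-fold. RefSeq annotates this locus in the C57BL/6J assembly as a transcribed pseudogene, and the other 5 members as protein coding.

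Rassf4 had the smallest difference of the 6 at 4 weeks. Its brightest probe, at chr6:116600596-116600655 on the minus strand, read 427 and 311 in KKAy at 11 weeks, against 16.8 and 14.7 in C57BL/6J. At 4 weeks it read 333 and 256 in KKAy, against 35.3 and 30.0 in C57BL/6J. The KKAy readings at the 2 ages overlapped, while the C57BL/6J readings did not. The log2 difference was 4.54 ± 0.21 at 11 weeks and 3.17 ± 0.21 at 4 weeks (SE), or 23.2-fold and 8.97-fold. With normexp the differences were 3.92 at 11 weeks and 2.90 at 4 weeks. The 4-week difference was 2.97 without the first 4-week KKAy array. Both 2.90 and 2.97 were below the fold limit by which the genes were chosen. With any other array left out, the 4-week difference stayed above that limit.

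Dusp16 was also well above background on all 8 arrays at its brighter probe, at chr6:134681331-134681371 on the minus strand. This probe read 566 and 666 in KKAy at 11 weeks, against 43.4 and 52.9 in C57BL/6J. The 4-week readings were 454 and 531 in KKAy, against 32.7 and 49.7 in C57BL/6J. No KKAy reading came near a C57BL/6J reading. The log2 difference was 3.68 ± 0.23 at 11 weeks and 3.61 ± 0.23 at 4 weeks (SE), or 12.8-fold and 12.2-fold.

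**Figure D1:**
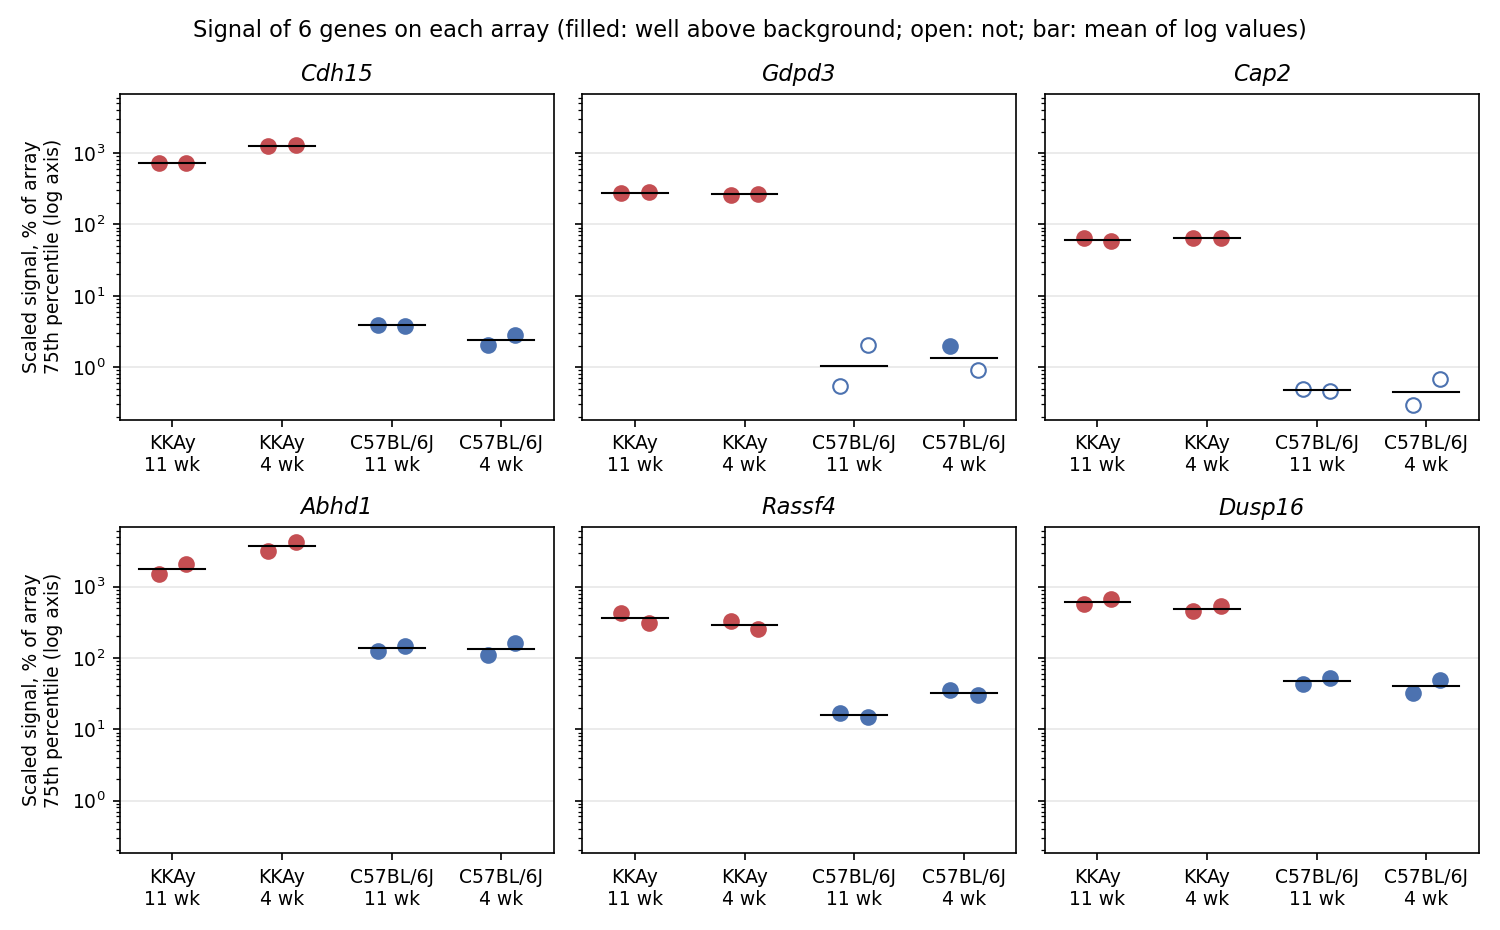
Each panel plots the scaled signal of the brightest probe of a gene (% of the array's 75th percentile, log axis) on every array, with KKAy in red to the left of C57BL/6J in blue and 11 weeks to the left of 4 weeks. Filled points were well above background, open points were not, and bars are group means of log values; the C57BL/6J points of Cdh15, Abhd1, Rassf4 and Dusp16 are filled, those of Cap2 are open, and of the 4 for Gdpd3 only 1 is filled.

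A description of these genes as switched on in KKAy alone goes against the values of Cdh15, Abhd1, Rassf4 and Dusp16, which were measurable on every C57BL/6J array. Gdpd3 was measurable on 1 of the 4 C57BL/6J arrays and Cap2 on none, which follows in part from how the genes were chosen. In all, 38 genes met the 8-fold limit at both ages, and the 6 members are part of them. Of the 38, 17 were well above background on no C57BL/6J array and 17 on all 4. By the smaller of the 2 log2 differences, Rassf4 was the member closest to the limit with 3.17, and Prelid2 with 3.11 and Arhgef10 with 3.05, which are no members, were among the last inside it. Just outside lay Bglap3, with log2 differences of 2.98 at 11 weeks and 3.11 at 4 weeks.

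Second probes were not part of the choice by brightest probe but carry the same strain contrast, and they are described here without a test. The second Cap2 probe, 2310 bases nearer the 3' end at chr13:46659791-46659850, read 13.7 and 16.5 in KKAy at 11 weeks, against 0.540 and 0.509 in C57BL/6J. It was well above background on none of the 4 C57BL/6J arrays either, and KKAy was at least 8.17-fold brighter at 11 weeks and at least 7.99-fold brighter at 4 weeks. The second Abhd1 probe, 536 bases upstream, had log2 differences of 3.69 at 11 weeks and 4.72 at 4 weeks, close to those of the first. Both probes of these 2 genes thus gave the same picture.

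The 6 Rassf4 probes spread over 11146 bases of chromosome 6 and fell into separate sets. The 4 that lie within 6828 bases of the 3' end had log2 differences between 4.38 and 4.66 at 11 weeks and between 2.85 and 3.36 at 4 weeks, and all were well above background on every array. The probe 10512 bases upstream read 3.49 and 4.00 in KKAy at 11 weeks, against 1.72 and 1.17 in C57BL/6J, and was well above background on 3 KKAy arrays and no C57BL/6J array. The one 11086 bases upstream was well above background on no array and was not tested. The annotation assigns these upstream probes to another transcript record than the rest. The strain difference of Rassf4 therefore stood on the 3' probes.

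Dusp16 was the member whose probes disagreed although each was well above background on every array. Its second probe, 2347 bases upstream at chr6:134683678-134683737, read 24.5 and 17.4 in KKAy at 11 weeks, against 13.9 and 11.3 in C57BL/6J. At 4 weeks it read 17.5 and 15.6 in KKAy, against 12.7 and 12.4 in C57BL/6J. The strains did not overlap, yet the log2 difference was only 0.72 at 11 weeks and 0.40 at 4 weeks (1.64-fold and 1.32-fold), although the probe was well above background on all 8 arrays. The brighter probe is aligned over 41 bases in the annotation and this one over 60, and the annotation assigns them to different transcript records. Which transcripts the probes read, and whether KKAy variants lie under any probe, was not tested, so the 12.8-fold and 12.2-fold values describe the brighter probe and not all Dusp16 transcripts.

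**Figure D2:**
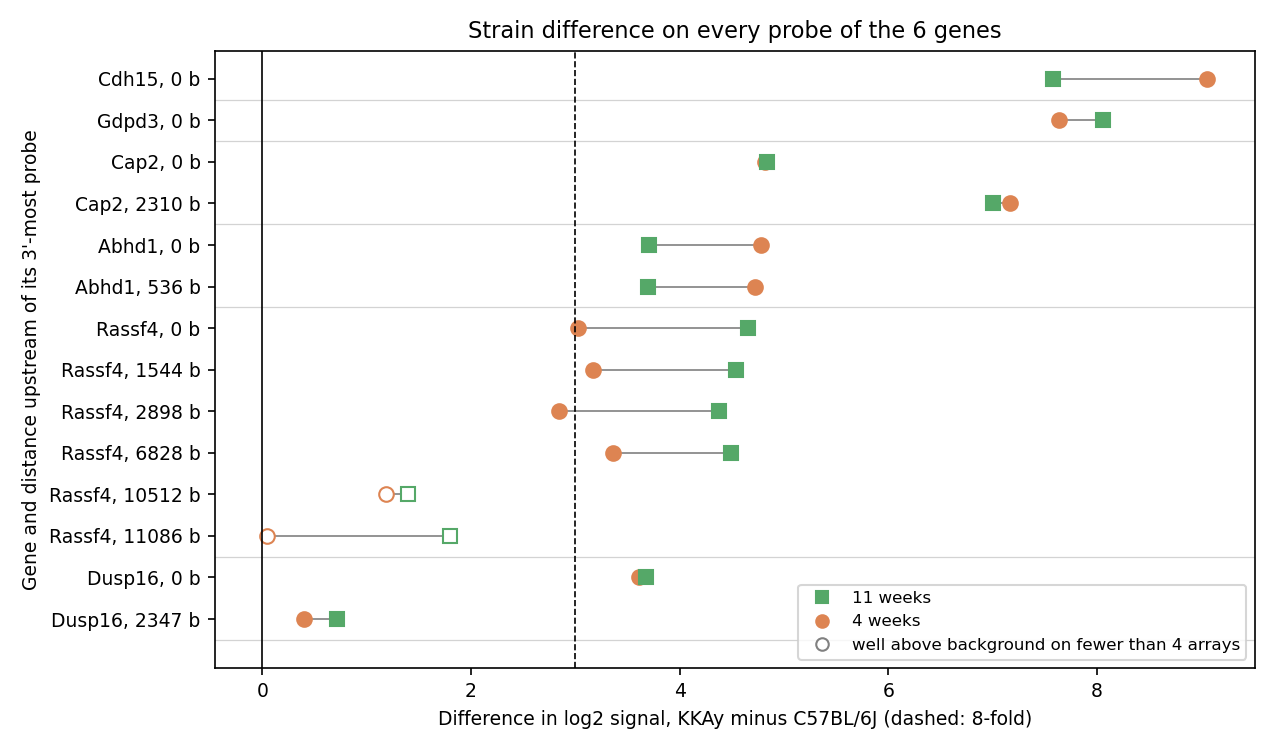
Every probe of the 6 genes is a row, labelled with its distance in bases from the 3'-most probe of its gene, and points give the log2 difference KKAy minus C57BL/6J at 11 weeks (squares) and 4 weeks (circles), joined by a line; the dashed line is 8-fold and open points were well above background on fewer than 4 arrays. The upstream Dusp16 probe, at 0.72 and 0.40, and the 2 most upstream Rassf4 probes lie left of the dashed line at both ages. The Rassf4 probe at 2898 bases lies left of it at 4 weeks only, with 2.85.

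Age was not used to choose the genes and was tested with limma over all genes. Slide 1 held all 4-week arrays and slide 2 all 11-week arrays, and an effect of slide cannot be told apart from one of age. In KKAy, of the 6 members 0 rose with age and 2 fell, where 8.04% of all genes were called higher and 10.5% lower at 11 weeks. In C57BL/6J, of the 4 members measurable there 0 rose and 1 fell, where 1.99% were called higher and 6.14% lower. At an unadjusted p under 0.05 limma gave 0 higher and 2 lower in KKAy and 1 higher and 1 lower in C57BL/6J. These counts are too small to set against the background shares, and each gene is given by its own value.

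Cdh15 fell with age in KKAy, by 0.80 ± 0.16 on the log2 scale (limma, adjusted p = 0.0227). Both 11-week readings, 727 and 738, were below both 4-week readings, 1247 and 1307. In C57BL/6J the change had the other sign, 0.68 ± 0.16, and did not pass the threshold (limma, adjusted p = 0.0634). The age effect differed between the strains by -1.48 ± 0.23 (interaction, limma, adjusted p = 0.0297), a call made for 3.82% of all genes. Leaving out any of the 4 KKAy arrays, or either 11-week C57BL/6J array, ended the call in KKAy, with adjusted p between 0.0579 and 0.107 and changes between -0.83 and -0.77, and so did a fit of the 4 KKAy arrays alone (limma, adjusted p = 0.0673). The interaction was no longer called when any array other than the second 4-week C57BL/6J array was left out, with adjusted p between 0.0569 and 0.146.

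Abhd1 also fell with age in KKAy, by 1.06 ± 0.27 on the log2 scale (limma, adjusted p = 0.0448). Its second probe, tested in a fit of every probe, fell by 1.23 ± 0.16 (limma, adjusted p = 0.0061). Both 11-week arrays read below both 4-week arrays at both probes. C57BL/6J gave 0.01 ± 0.27 at the first probe (limma, adjusted p = 0.988), and the difference between the strains was -1.07 ± 0.38 (interaction, limma, adjusted p = 0.218). Without any of the 4 KKAy arrays or either 11-week C57BL/6J array the change at the first probe was not called, with adjusted p between 0.0585 and 0.180 and changes between -1.30 and -0.81, nor was it in a fit of the 4 KKAy arrays alone (limma, adjusted p = 0.118).

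Rassf4 fell with age in C57BL/6J, by 1.05 ± 0.21 on the log2 scale (limma, adjusted p = 0.0392). The 3 other probes near the 3' end gave -0.92, -0.90 and -1.39 there, with limma adjusted p between 0.118 and 0.129 in the fit of every probe. In KKAy the change was 0.32 ± 0.21 (limma, adjusted p = 0.367), and the difference between the strains was 1.37 ± 0.30 (interaction, limma, adjusted p = 0.0743). The Rassf4 call was lost when any of the 4 C57BL/6J arrays was left out, with adjusted p between 0.117 and 0.221, without either 4-week KKAy array, with 0.0526, and with quantile normalization, with 0.0626. The strain difference of Rassf4 was wider at 11 weeks than at 4 weeks on all 4 of these probes.

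The other members had no called change with age. Dusp16 gave 0.32 ± 0.23 in KKAy (limma, adjusted p = 0.407) and 0.25 ± 0.23 in C57BL/6J (limma, adjusted p = 0.649). Gdpd3 gave 0.05 ± 0.65 in KKAy (limma, adjusted p = 0.967) and Cap2 -0.09 ± 0.37 (limma, adjusted p = 0.905). Neither is given an age value in C57BL/6J, where Cap2 was not well above background on any of the 4 arrays, nor Gdpd3 on 3 of them. The KKAy readings of Gdpd3 and Cap2 lay close together over both ages, but the shared error of the fit leaves intervals that are wide for both.

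**Figure D3:**
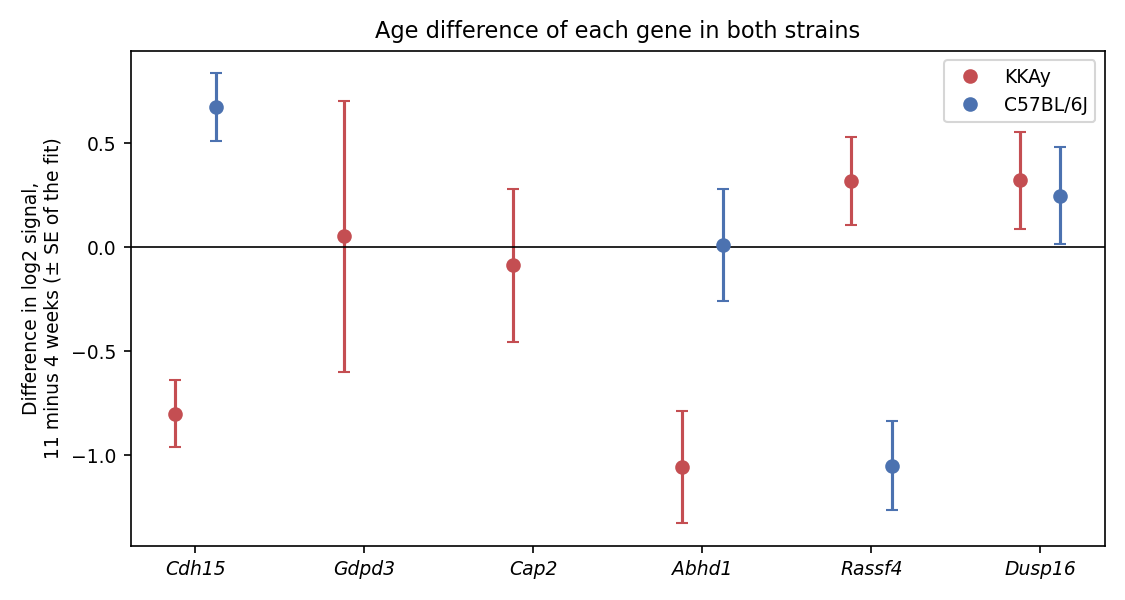
Points are the log2 differences 11 weeks minus 4 weeks for each gene, with KKAy in red left of C57BL/6J in blue and bars of ± 1 SE from the limma fit; Gdpd3 and Cap2 have no C57BL/6J point because no 11-week C57BL/6J array was well above background for them. Cdh15 and Abhd1 in KKAy and Rassf4 in C57BL/6J are the 3 that passed the threshold.

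Relatives of each member were examined to see whether the strain difference extended to a family or pathway. Over all genes, 9.82% were called higher and 11.7% lower in KKAy at 11 weeks, and 6.51% higher and 8.92% lower at 4 weeks (limma, adjusted p under the threshold of 0.05). The median of all genes was -0.01 at 11 weeks and 0.02 at 4 weeks. Scaling on 224 spike-in control spots in place of the 75th percentile put that median at 0.14 and 0.36, and put the share of calls that were higher in KKAy at 60.8% and 75.9%, against 45.6% and 42.2% in the main scaling. The called differences of up to 4 relatives per list and age and of the neighbours, 57 in all, kept their direction under every alternative tried, and 19 of them were called under each.

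Of 13 tested cadherins and catenins, 2 were higher and 3 lower in KKAy at 11 weeks, and 2 higher and 1 lower at 4 weeks, with list medians of 0.20 and 0.06. Cdh11, a cadherin of mesenchymal cells, was higher by 1.33 ± 0.20 at 11 weeks and 1.17 ± 0.20 at 4 weeks (limma, adjusted p = 0.0064 and 0.0124). Cdh13, a cadherin without a transmembrane part, was higher by 0.63 ± 0.12 and 0.64 ± 0.12. The endothelial cadherin Cdh5 fell by 0.55 ± 0.12 at 11 weeks and by 0.53 ± 0.12 at 4 weeks. Cdh1, the cadherin of epithelia including hepatocytes, fell by 0.67 ± 0.12 at 11 weeks, with a 4-week difference of -0.27 that did not pass, and Ctnna1, which links cadherins to actin, fell by 0.56 ± 0.09 at 11 weeks. No tested cadherin or catenin came near the Cdh15 difference. Cdh15 was chosen for a wide strain difference, so this comparison says nothing about the family. The list held 21 genes, and those beyond the 13 tested did not pass the filter.

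Few of the actin regulators around Cap2 passed the test. Of 21 tested, 1 was higher and 2 lower at 11 weeks and 0 were higher and 2 lower at 4 weeks (1 and 4 at an unadjusted p under 0.05 by limma), with medians of 0.06 and -0.12. Cytoplasmic gamma-actin, Actg1, fell by 1.04 ± 0.21 at 11 weeks and by 0.86 ± 0.21 at 4 weeks (limma, adjusted p = 0.0178 and 0.0415). At 11 weeks the actin-severing Dstn fell by 0.47 ± 0.11 and Tmsb10, which holds actin monomers, rose by 0.54 ± 0.11, and at 4 weeks Coro1a, a coronin of blood cells, fell by 1.03 ± 0.19. Cap1, the widely expressed paralog of Cap2, was among the genes not called.

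Among 16 tested genes of the GDPD family and of lysophosphatidic acid and N-acylethanolamine metabolism, 1 was higher and 2 lower at 11 weeks, and 0 higher and 1 lower at 4 weeks (3 and 1 at an unadjusted p under 0.05 by limma), with medians of 0.12 and 0.19. Gpcpd1, a glycerophosphocholine phosphodiesterase, fell by 1.64 ± 0.09 at 11 weeks and by 0.54 ± 0.09 at 4 weeks (limma, adjusted p = 0.000254 and 0.0125). The lysophosphatidic acid receptors moved apart at 11 weeks, where Lpar1 rose by 0.76 ± 0.11 and Lpar5 fell by 1.18 ± 0.15 (limma, adjusted p = 0.0060 and 0.0042).

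The alpha/beta hydrolase family of Abhd1 had 18 tested genes, of which 4 were higher and 2 lower at 11 weeks and 2 higher and 1 lower at 4 weeks, with medians of 0.20 and 0.17. Abhd10, a mitochondrial thioesterase, fell by 0.98 ± 0.10 at 11 weeks and by 0.92 ± 0.10 at 4 weeks (limma, adjusted p = 0.0015 and 0.0025). The depalmitoylase Abhd17c rose by 0.99 ± 0.09 at 11 weeks and 0.45 ± 0.09 at 4 weeks (limma, adjusted p = 0.0013 and 0.0267). Abhd6, a monoacylglycerol lipase, fell by 0.96 ± 0.14 at 11 weeks, when Abhd17a rose by 0.63 ± 0.12, and Abhd15, an adipocyte regulator of lipolysis, rose by 0.55 ± 0.10 at 4 weeks.

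In the RASSF family and the Hippo pathway, 23 genes were tested, with 1 higher and 2 lower at each age and medians of 0.03 at both. The Hippo target Ccn1 rose by 0.87 ± 0.09 at 11 weeks while Ccn2, another target, fell by 1.60 ± 0.21 (limma, adjusted p = 0.0020 and 0.0045). Tead1, a DNA-binding partner of YAP, fell by 0.88 ± 0.09 at 11 weeks and rose by 0.38 ± 0.09 at 4 weeks (limma, adjusted p = 0.0018 and 0.0423). Rassf2 fell by 0.76 ± 0.14 at 4 weeks and the kinase gene Lats2 by 0.54 ± 0.10.

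The phosphatases and stress-kinase genes around Dusp16 gave 2 higher and 3 lower of 27 tested at 11 weeks, and 1 higher and 6 lower at 4 weeks, with medians of -0.03 and -0.08. Dusp2, a nuclear phosphatase of immune cells, fell by 1.34 ± 0.19 at 11 weeks and by 1.72 ± 0.19 at 4 weeks (limma, adjusted p = 0.0060 and 0.0031). The JNK phosphatase Dusp8 rose by 0.87 ± 0.17 at 11 weeks and fell by 0.70 ± 0.17 at 4 weeks (limma, adjusted p = 0.0184 and 0.0472). The stress-induced factor Atf3 rose by 1.51 ± 0.13 at 11 weeks and Dusp4 fell by 0.77 ± 0.13. At 4 weeks Junb, an AP-1 subunit, fell by 0.82 ± 0.14, and Map2k3, the kinase above p38, rose by 0.74 ± 0.11.

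**Figure D4:**
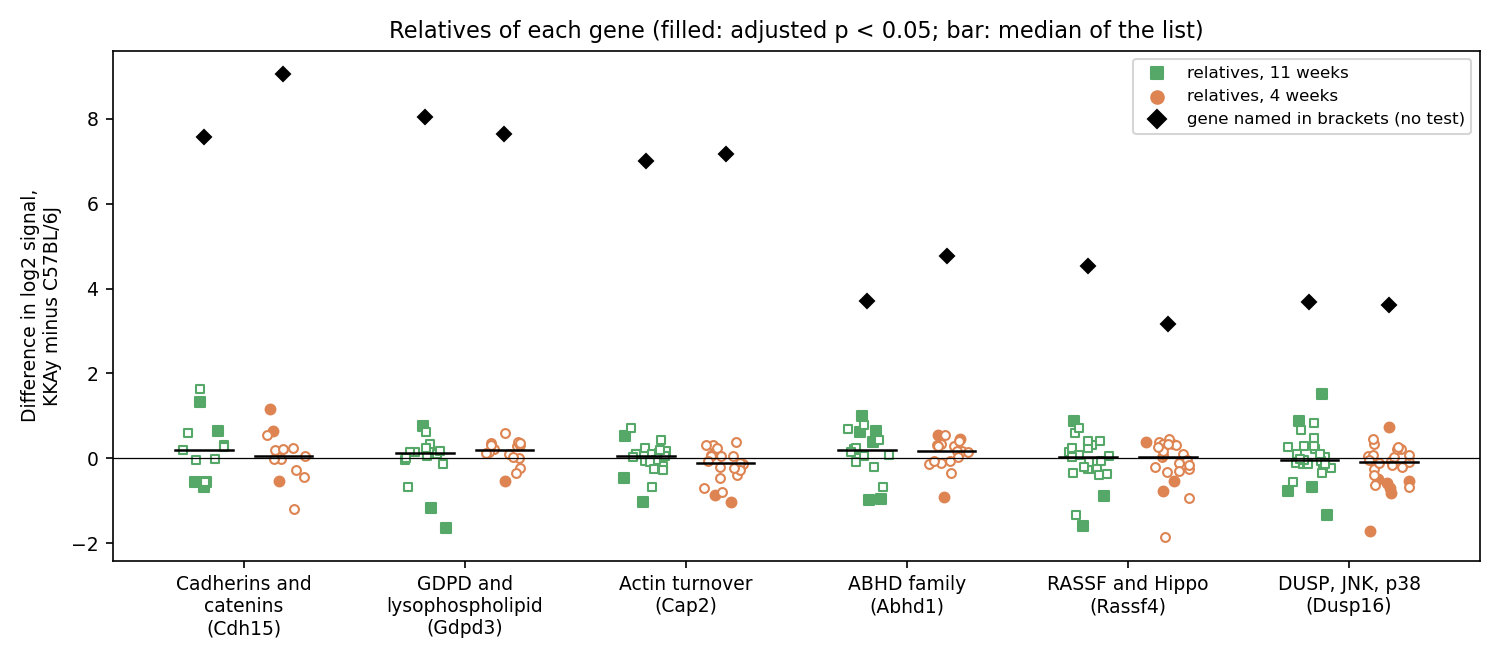
Points are tested relatives of each member, by list, with their log2 difference KKAy minus C57BL/6J at 11 weeks (squares, left) and 4 weeks (circles, right); filled points passed the limma threshold, bars are list medians, and black diamonds are the members, which were not tested. All list medians lie between -0.12 and 0.20, and the diamonds lie at 3.17 and above.

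The 3 nearest tested genes on each side of every member, 36 in all, were taken from the RefSeq gene order. At 11 weeks 7 were higher and 5 lower in KKAy, and at 4 weeks 4 were higher and 5 lower, with medians of 0.02 and 0.04. The 4 include Rbm24, which passed the filter through KKAy arrays alone. Over all genes 9.82% were called higher and 11.7% lower at 11 weeks, and 6.51% higher and 8.92% lower at 4 weeks. The neighbour counts are too small to set apart from these shares. Of the neighbours, 3 were higher and 2 lower at both ages. Their differences ran from -3.20 to 2.52 at 11 weeks and from -1.13 to 2.50 at 4 weeks.

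The neighbourhood of Dusp16 held the largest rise. Lrp6, a Wnt co-receptor, rose by 2.52 ± 0.33 at 11 weeks and 2.50 ± 0.33 at 4 weeks (limma, adjusted p = 0.0043 and 0.0053). Mansc1, between Lrp6 and Dusp16, rose by 1.05 ± 0.10 and 1.01 ± 0.10 (limma, adjusted p = 0.0012 and 0.0018). On the far side the cell-cycle inhibitor Cdkn1b fell by 0.98 ± 0.26 and by 1.05 ± 0.26, both close to the threshold (limma, adjusted p = 0.0450 and 0.0462). Borcs5, the gene next to Dusp16 on the Mansc1 side, had differences of 0.03 and -0.15 and was not called.

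Beside Abhd1, the vitamin transporter gene Slc5a6 rose by 1.09 ± 0.14 at 11 weeks and 1.30 ± 0.14 at 4 weeks (limma, adjusted p = 0.0040 and 0.0027). Cgref1, a growth regulator on the other side, fell by 3.20 ± 0.38 at 11 weeks (limma, adjusted p = 0.0032), and its 4-week value was 0.45 ± 0.38. Preb, which overlaps Abhd1 in the annotation, had differences of -0.14 and -0.54 and was not called.

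Around Rassf4, the zinc finger gene Zfp422 fell by 0.995 ± 0.09 at 11 weeks and by 0.47 ± 0.09 at 4 weeks (limma, adjusted p = 0.0013 and 0.0220). Depp1, which overlaps Rassf4 in the annotation and is a FOXO target, fell by 1.13 ± 0.18 at 4 weeks and had a difference of 0.02 at 11 weeks. Marchf8, a membrane ubiquitin ligase, rose by 0.73 ± 0.16 at 11 weeks (limma, adjusted p = 0.0255).

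None of the 6 neighbours of Gdpd3 was called at 11 weeks, including the adjacent kinase gene Mapk3 with -0.02 and Ypel3 with 0.06, and at 4 weeks Coro1a alone was. The neighbours of Cap2 went both ways. At 11 weeks 5033430I15Rik rose by 0.89 ± 0.24 and the adjacent Fam8a1 by 0.54 ± 0.12, while Kif13a, a kinesin, fell by 0.56 ± 0.10 (limma, adjusted p = 0.0466, 0.0272 and 0.0132). At 4 weeks Atxn1, the ataxin-1 gene, fell by 0.73 ± 0.17 (limma, adjusted p = 0.0371). The RNA-binding gene Rbm24 was well above background on no C57BL/6J array and passed the filter through KKAy arrays alone, so a difference at 4 weeks was built into its selection. Its 4-week value is therefore given as a description without a test. With the scanner's background correction, Rbm24 was at least 2.50-fold brighter in KKAy at 4 weeks. Its fitted log2 difference at that age was 1.94, and it ran from 0.67 to 2.29 under the alternatives.

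Next to Cdh15, Cbfa2t3 fell by 0.95 ± 0.11 at 11 weeks and Spg7 rose by 0.49 ± 0.09, and the adjacent Acsf3 and Ankrd11 had differences of -0.04 and -0.25 that were not called.

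**Figure D5:**
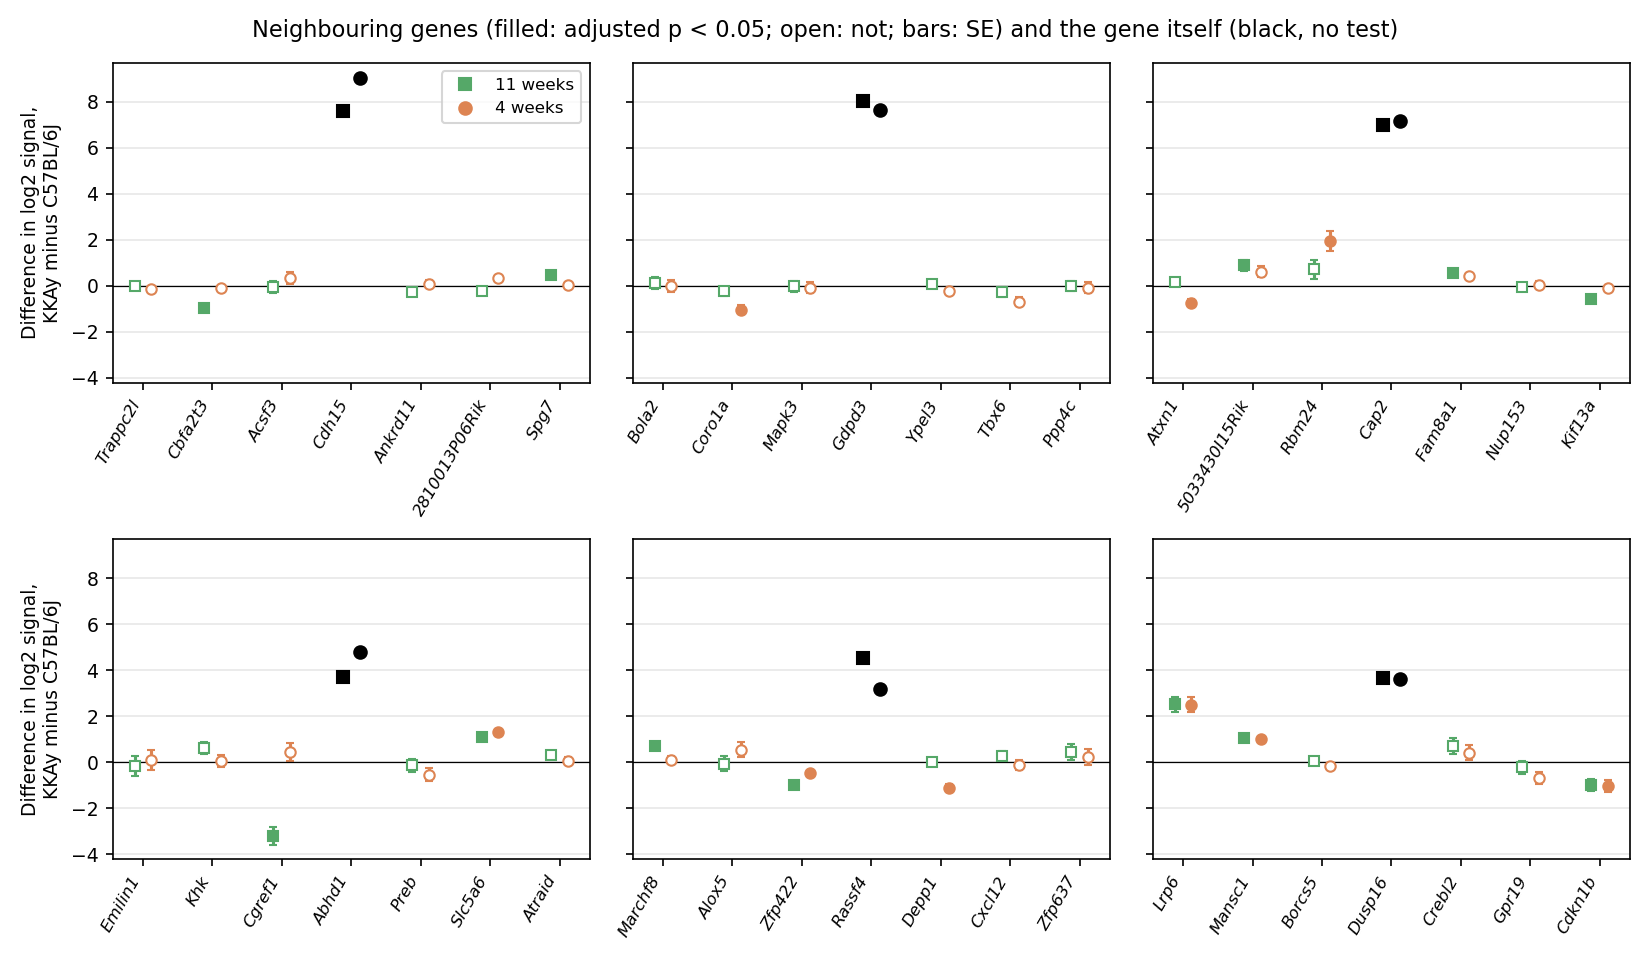
Each panel plots the 3 nearest tested genes on each side of a member, in gene order, as the log2 difference KKAy minus C57BL/6J at 11 weeks (squares, left) and 4 weeks (circles, right) with ± 1 SE; filled points passed the limma threshold, and the member itself is in black without a test. Lrp6 in the Dusp16 panel, at 2.52 and 2.50, is the highest neighbour, and Cgref1 in the Abhd1 panel, at -3.20 at 11 weeks, the lowest.

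The genes whose signal was most like that of each member over the 8 arrays were found by Pearson's r of log2 signal among 13892 named genes, as a description in which the strain difference dominates. Cap2 was most like Ifi202b (0.999), which was 7.25 higher in KKAy at 11 weeks and 7.80 at 4 weeks, and like the agouti gene a (0.999). Gdpd3 was most like Serpina3a (0.998) and Bglap (0.997), and Cdh15 was most like Rbm45 (0.998) and Hddc3 (0.997). Abhd1 was closest to Ero1a and Cblc (0.998 each), Rassf4 to Fads1 and Vcpkmt (0.999 each) and Dusp16 to Slc35e4 (0.998) and Pign (0.997). Pearson's r does not measure the size of a difference. Cblc was only 0.50 higher in KKAy at 11 weeks and 0.71 at 4 weeks, and Fads1 0.96 and 0.66. Serpina3a was higher by 7.95 and 7.40, near the values of Gdpd3.

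Markers of other cells were set beside these results, because whole liver was sampled and fewer cells of a type cannot be told apart from less RNA per cell. All 12 tested hepatocyte markers were well above background on all 8 arrays. Skeletal muscle and satellite cells are where Cdh15 and Cap2 are best known. Of 20 marker genes for these cells, 9 were tested, of which 0 were higher in KKAy at either age and 1 was lower at 11 weeks, while Ckm, Myod1, Myog and Myf5 were well above background on both arrays of no group. At an unadjusted p under 0.05 limma gave 2 higher and 1 lower at 11 weeks and 0 higher and 1 lower at 4 weeks. The summed signal of the muscle markers was 142 to 154 in KKAy and 126 to 146 in C57BL/6J at 11 weeks, and 113 to 128 in KKAy and 112 to 126 in C57BL/6J at 4 weeks.

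Immune markers did move with strain and with age. Of 14 macrophage markers 0 were higher in KKAy by limma, also at an unadjusted p under 0.05, with 9 lower at 11 weeks and 11 lower at 4 weeks, and their summed signal was 4649 to 4917 in KKAy against 7861 to 8473 in C57BL/6J at 11 weeks, and 7642 to 8629 in KKAy against 18213 to 21121 in C57BL/6J at 4 weeks. With age 9 of the 14 fell in KKAy and 11 fell in C57BL/6J, where Rassf4 fell too. With age in KKAy, where Cdh15 and Abhd1 fell, 7 of 10 stellate cell, 7 of 14 lymphocyte and 4 of 9 endothelial markers fell. In C57BL/6J, where neither gene had a called fall, 3 of 10, 8 of 14 and 1 of 9 of these markers fell. Over all genes 10.5% were called lower with age in KKAy and 6.14% in C57BL/6J. Of 3 erythroid markers 2 fell and 1 rose in KKAy, with sums of 9038 to 10216 at 11 weeks and 15673 to 17556 at 4 weeks. In C57BL/6J 2 of the 3 fell and 0 rose. The adipocyte markers in KKAy summed to 957 to 1335 at 11 weeks and 6375 to 8196 at 4 weeks, with 1 of 6 higher and 1 lower. Some markers were brighter in KKAy, as the members were. The summed neutrophil markers were at 560 to 780 in KKAy against 131 to 166 in C57BL/6J at 11 weeks and 285 to 382 in KKAy against 189 to 249 in C57BL/6J at 4 weeks, with 2 of 5 and 1 of 5 called higher and median log2 differences of 0.48 and -0.03. Erythroid markers summed to 9038 to 10216 in KKAy against 5486 to 5924 in C57BL/6J at 11 weeks, and to 15673 to 17556 in KKAy against 9592 to 10870 in C57BL/6J at 4 weeks, with 1 of 3 and 2 of 3 called higher. The part of these cells in the values of the 6 genes was not tested.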

How the data were processed

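Liver RNA of 4 groups was labelled with Cy3 and hybridised to 8 Agilent 1-colour arrays with 43379 spots for transcripts and a further 1639 control spots. The deposited scanner files hold background-subtracted intensity values from Agilent Feature Extraction 9.5.1.1, per the file headers, with probe positions in mm8. The series table deposited by the authors holds log2 values that equal the log2 signal minus a constant per array, within 0.001 for 100% of values. Its column medians run from -3.96 to -3.67 and its direction and scale are settled by this match, while no source used here states the centring; 0 of its columns belonged to no sample.

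Outlier spots (59 to 89 per array) were left out, 245 repeated probes were averaged, and log2 intensity was taken minus the 75th percentile of the array, which was 491.6 to 1241 units. Between 56.3% and 66.7% of spots per array were well above background and 0 were saturated, and the number of arrays limits the precision. A probe entered the tests if at least 1 group had it well above background on both of its arrays (25320 of 41174), and a gene was read from its brightest probe, which left 17049 genes. Probe names were updated through RefSeq, by accession for 24490 probes, symbol for 6234 and synonym for 2391, while 8059 kept the file's name. Group means were fitted over all 8 arrays with limma 3.58.1 in R 4.3.3, with Benjamini-Hochberg adjustment over all genes at 0.05, after the scripts were tested on simulated data. "At least" folds set the mean of the bright group against the lowest signal well above background on each dim array, or the probe's own signal where higher. Tables were made in Python 3.11.15 with pandas 2.3.3 and numpy 2.4.6.

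The members and gene lists were chosen with earlier results of these data known. The text names all members, up to 4 called relatives per list and age by size of change, the called ones among the 3 nearest tested genes on each side with some uncalled ones beside them, the 2 genes most alike over the arrays, and genes at the 8-fold edge; a relative's value at the other age, Cap1 and marker genes named as not measurable are given beside them. C57BL/6J occupied positions 1 and 2 of each slide and KKAy positions 3 and 4, so strain goes with position. Alternatives were normexp background correction with an offset of 50, quantile and spike-in scaling, the deposited table, other probe filters, every probe alone, 4 arrays alone, the replicate number as a term, and each array left out.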

Additional observations from a re-analysis of the deposited data

Results flagged for a closer look

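In 9 of the named genes the strain difference changed with age by the interaction test of limma, and in all 9 age cannot be told apart from slide. Over all genes 3.82% were called in this test. The relatives and neighbours were named for a called strain difference at either age, which favours genes that differ at a single age. Their number therefore cannot be set against that share. Cdh15 changed by -1.48 on the log2 scale (limma, adjusted p = 0.0297), a narrower KKAy excess at 11 weeks than at 4 weeks. Among the relatives, Atf3 gave 1.71 (adjusted p = 0.0105) and Dusp8 1.58 (adjusted p = 0.0305), both higher in KKAy at 11 weeks, when Tead1 with -1.26 (adjusted p = 0.0096), Gpcpd1 with -1.10 (adjusted p = 0.0133), Lpar5 with -1.48 (adjusted p = 0.0250) and Abhd6 with -1.13 (adjusted p = 0.0390) were lower there. Among the neighbours, Cgref1 gave -3.65 (adjusted p = 0.0261) and Cbfa2t3 gave -0.84 (adjusted p = 0.0422).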

How the results depend on the processing

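With 2 arrays a group the counts of called genes moved with most choices. For age in KKAy, 3167 genes were called, against 740 with 4 arrays alone, 1460 without the filter, 1925 with normexp and 1317 to 2377 with an array left out. For age in C57BL/6J, 1385 were called, against 682 without the filter, 671 with normexp and 432 to 1269 with an array left out. The interaction had 652, against 142, 327 and 58 to 287 under those choices and 413 with spike-in scaling. For strain at 11 weeks, 3671 were called, against 2095 with 4 arrays alone, 2118 without the filter, 2398 with normexp and 1479 to 3059 with an array left out, and for strain at 4 weeks 2629, against 1393, 1511 and 1307 to 2577 for 4 arrays, no filter and an array left out. Spike-in scaling put the share of higher calls at 19.5% in place of 43.3% for age in KKAy and at 35.6% in place of 52.6% for the interaction, with medians of all genes at -0.18 and -0.21.

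With the replicate block, the replicate number as a term in the fit, calls went to 9193 (age in KKAy), 6068 (age in C57BL/6J), 5341 (interaction), 9400 (strain at 11 weeks) and 7508 (strain at 4 weeks). Deviations of same-numbered arrays correlated at 0.53 to 0.68 over genes, but only 2 pairs enter a comparison and no label ties the numbers, so the pairing was not used. Under it Rassf4 in KKAy (adjusted p = 0.0256), Cdh15 in C57BL/6J (0.0176) and the interactions of Abhd1 (0.0064) and Rassf4 (0.0027) were also called by limma.

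The age calls of Cdh15, Abhd1 and Rassf4 and the Cdh15 interaction were each lost without the filter (adjusted p = 0.0756, 0.113, 0.110 and 0.115), and those of Cdh15, Rassf4 and the interaction with normexp (0.0756, 0.140 and 0.127). Cdh15 (0.0673) and Abhd1 (0.118) were also lost with 4 arrays alone, and Rassf4 with quantile normalization (0.0626). Values near 0 changed sign. Gdpd3 with age in KKAy was -0.16 with spike-in scaling. Abhd1 with age in C57BL/6J was -0.0046 in the deposited table, -0.030 with normexp, -0.011 with quantile normalization and -0.26 to 0.29 with an array left out. Dusp16 ranged from -0.053 to 0.55 there with an array left out, and its interaction was -0.063 with quantile normalization, -0.13 with spike-in scaling and -0.23 to 0.38 with an array left out. Normexp, which raises dim signals, gave strain differences at 11 and 4 weeks of 5.84 and 7.14 for Cdh15, 4.53 and 4.85 for Gdpd3 and 2.76 and 3.13 for Cap2. The causes of these changes were not tested. Signals at background limit Gdpd3 and Cap2 in C57BL/6J.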
